A study of Homo sapiens with 27 samples.

Results

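The 9 growth control genes examined here are the D-type cyclins CCND1, CCND2 and CCND3, their kinases CDK4 and CDK6, the pocket protein RB1, the transcription factors E2F1 and MYC, and the kinase inhibitor CDKN1B. They were taken by gene symbol from a fixed list and are 9 of the 20268 genes in the deposited tables. They were measured in 27 Poly(A)-ClickSeq (PAC-seq) libraries, which read the junction of an mRNA with its poly(A) tail, from hormone-sensitive LNCaP cells, from LNCaP95 cells (an LNCaP derivative that grows without androgen) and from hormone-insensitive 22Rv1 cells. All cells had been transduced with lentivirus and selected with puromycin as pools rather than clones, and carried either a control hairpin (CTRL sh) or 1 of 2 hairpins against CPSF1 (CPSF1 sh1, CPSF1 sh2), with 3 libraries per group and total RNA taken after 72 h of growth. All 27 libraries, those of LNCaP95 included, came from cells grown in medium with 10% fetal bovine serum. CPSF1 encodes the large subunit of the complex that recognizes the poly(A) signal. The libraries of a group are described as biological replicates, without a word on whether each was a separate culture, so p-values measure the spread between these libraries only, and in bulk RNA a change in fewer cells cannot be told apart from a smaller change in every cell.

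D-type cyclins activate CDK4 and CDK6 in G1, and the active kinases phosphorylate RB1, which releases E2F factors to transcribe the genes of S phase. CDKN1B (p27) inhibits cyclin-CDK complexes and holds cells in G1, whereas MYC drives growth and cell cycle entry. In prostate cancer cells this axis is among the routes by which androgen signaling reaches the cell cycle. Several of these genes are also known to end their mRNAs at more than 1 site, CCND1 and CDK6 among them.

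Cleavage usually follows a short hexamer, AATAAA or less often ATTAAA, on the sense strand. The last 50 bases before the annotated 3′ end were searched for both, since the question put to these genes is where their mRNAs end. AATAAA was found for CCND1, CCND2, CCND3, E2F1, MYC and CDKN1B, and ATTAAA alone for CDK6, while CDK4 and RB1 had neither in this window. Over the 19534 genes whose annotated end could be read, 59.4% had AATAAA, 17.1% had ATTAAA and 72.9% had either. The windows below are 30 bases of the GRCh37 reference on the gene's strand, inside the 3′ untranslated region, with the hexamer in capitals.
CCND1, chr11:69469210-69469239, plus strand: tgaaagtctagaAATAAAactggtaaaacc
CCND2, chr12:4414486-4414515, plus strand: tgctatttggacAATAAActcaccttgacc
CCND3, chr6:41902679-41902708, minus strand: agatgattgtgaAATAAAactggctttggc
CDK6, chr7:92234241-92234270, minus strand: tgagtaaaattcATTAAAttccaagtttta
E2F1, chr20:32263492-32263521, minus strand: tgctttggttttAATAAAtattttgatgac
CDKN1B, chr12:12875269-12875298, plus strand: cattaagtaatcAATAAAgaaaacttccat
The hexamer began 21 bases before the annotated end in CCND1 and E2F1, 19 in CCND2, 26 in CCND3, 24 in CDK6, 25 in CDKN1B and 35 in MYC.

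Reads were assigned by the authors to 4 tables of regions. These were the 3′ UTR extended by 300 bases, the introns, the coding sequence, and the 10 kb that follow the extended 3′ UTR with exons of the same strand cut out. The 10 kb region therefore collects ends that lie past the annotated one. It ran over chr11:69469542-69479541 for CCND1, chr12:4414816-4424815 for CCND2 and chr6:41892372-41902371 for CCND3. For the kinases it ran over chr12:58132029-58141210 for CDK4, where 8938 bases remained after the cuts, and over chr7:92223936-92233935 for CDK6. For RB1 it was chr13:49056422-49066421, for MYC chr8:128753974-128763973, for E2F1 chr20:32253190-32263189 with 8344 bases left, and for CDKN1B chr12:12875605-12885604 with 9447 bases left. AATAAA occurred on the sense strand 4 times in this region of CCND1, 7 times in CCND2, 16 in CCND3, 5 in CDK4, 12 in CDK6, 14 in RB1, 15 in MYC and 18 in CDKN1B, and was not found in that of E2F1. Uncut 10 kb regions of 15687 genes had a median of 9, with quartiles of 5 and 13, and 97.5% had at least 1. Genes on the same strand overlapped the region for CCND2 (TIGAR), CDK4 (AGAP2), E2F1 (NECAB3) and CDKN1B (APOLD1), so reads there need not belong to the named gene. In a newer Gencode annotation mapped to GRCh37, a transcript model of MYC and a model of RB1 themselves reach into their regions.

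Library depth over the 4 tables ranged from 3856706 to 11239076 reads for LNCaP, from 5431900 to 9100287 for LNCaP95 and from 3452413 to 12425417 for 22Rv1. CPSF1 itself fell in its 3′ UTR counts in each line, by 1.19 ± 0.17 on the log2 scale (SE) in LNCaP (adjusted p = 8.31e-05), by 1.05 ± 0.18 in LNCaP95 (adjusted p = 0.000301) and by 0.73 ± 0.14 in 22Rv1 (adjusted p = 0.0164, edgeR quasi-likelihood test with Benjamini-Hochberg adjustment over all genes tested). The 22Rv1 call was lost without CTRL sh replicate 3 (adjusted p = 0.0545), without CPSF1 sh2 replicate 2 (0.0511) or without CPSF1 sh2 replicate 3 (0.0514), and with CPSF1 sh1 alone (log2 change -0.63, adjusted p = 0.41). All 10 luminal prostate markers on the list were above 2 CPM (counts scaled to the library total) in every line. Their summed level was 5986 to 6229 CPM in LNCaP controls and 4575 to 5040 after knockdown, 9864 to 10294 and 6666 to 7707 in LNCaP95, and 3219 to 3334 and 3592 to 3988 in 22Rv1, and their part in the results below was not tested. The 4 leukocyte markers together stayed at or below 4.06 CPM and the 3 basal epithelial markers at or below 6.04 CPM. For the 5 stromal markers the LNCaP libraries summed to between 8.07 and 19.8 CPM, those of LNCaP95 to between 30.4 and 44.3, and those of 22Rv1 to between 5.22 and 13.3. For the 4 neuroendocrine markers the sums were 3.95 to 6.80, 6.36 to 16.9 and 53.3 to 61.7 CPM in the same order.

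In control cells the axis differed by line, as the plot of 3′ UTR levels shows. CCND1 was at 1565 ± 274 CPM in LNCaP (SD, n = 3), 896 ± 81.0 in LNCaP95 and 9292 ± 1943 in 22Rv1, so 22Rv1 stood highest and LNCaP95 lowest with no overlap between groups. The log2 difference was 2.47 ± 0.16 between 22Rv1 and LNCaP (adjusted p = 3.04e-09), 3.52 ± 0.17 between 22Rv1 and LNCaP95 (6.13e-11) and -1.05 ± 0.16 between LNCaP95 and LNCaP (5.49e-05). CCND2 was read in control LNCaP95 cells, at 19.6, 22.1 and 18.1 CPM, whereas 1 read was counted in the 3 LNCaP control libraries and 0 in the 3 of 22Rv1. A count of 0 over the 3 libraries of 22Rv1 allows up to about 3 reads in all, so absence cannot be shown at this depth. CCND3 was at 54.3 ± 9.90 CPM in LNCaP, 38.9 ± 5.13 in LNCaP95 and 50.2 ± 0.842 in 22Rv1. It was lower in LNCaP95 than in LNCaP (log2 difference -0.72 ± 0.18, adjusted p = 0.00454). CCND3 was also higher in 22Rv1 than in LNCaP95 (0.51 ± 0.18, 0.0265), a call lost without LNCaP95 CTRL sh replicate 1 (adjusted p = 0.074) or 2 (0.0974), or without 22Rv1 CTRL sh replicate 2 (0.0587) or 3 (0.0601). LNCaP and 22Rv1 did not differ in CCND3 beyond their spread (-0.21 ± 0.18, adjusted p = 0.365).

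**Figure D1:**
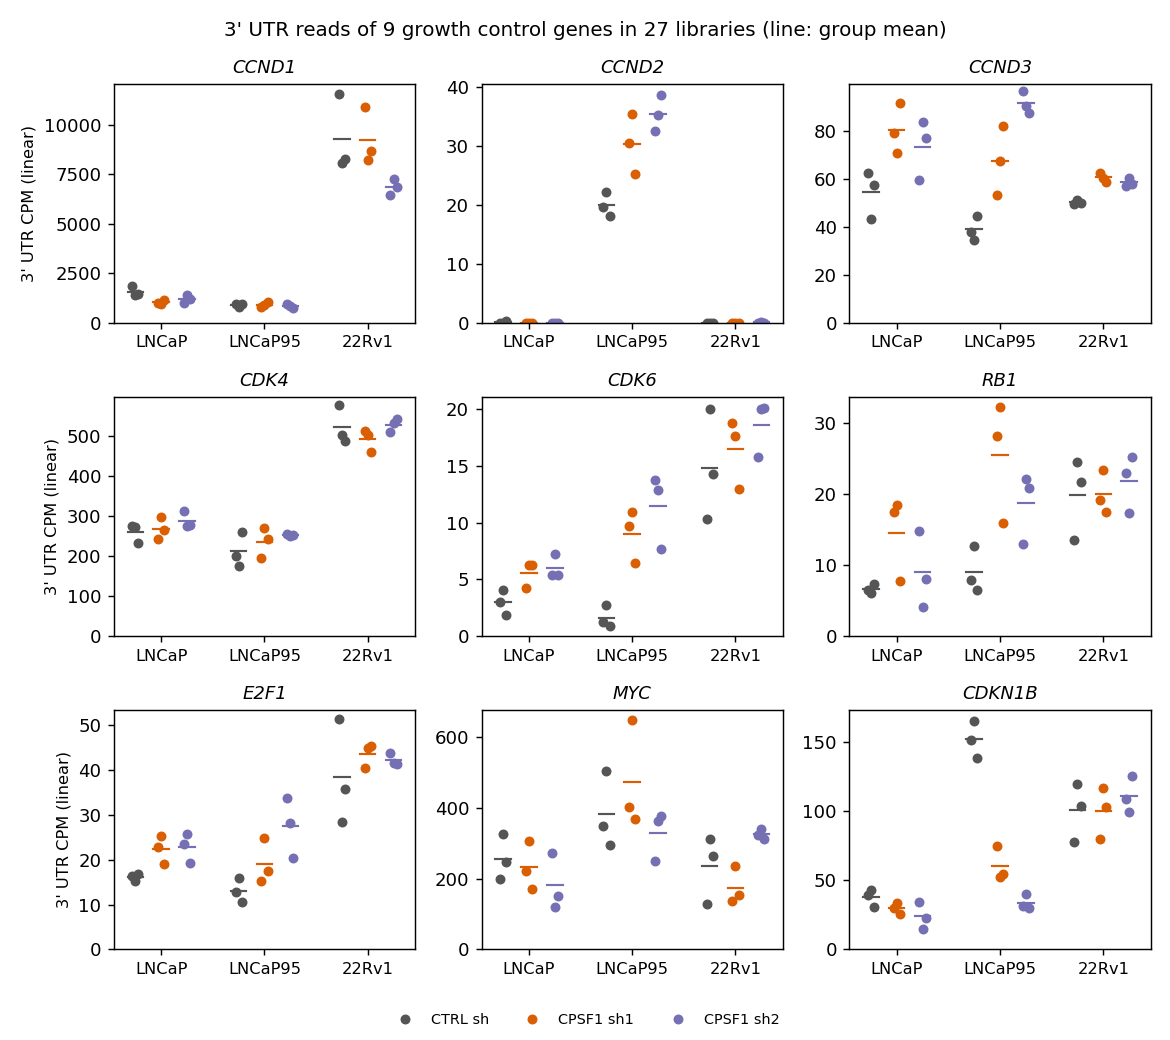
Levels of the 9 genes in the 3′ UTR table, in CPM, for each of the 27 libraries (points) with the group means (short lines), by line and hairpin on linear axes. CCND1 was highest in 22Rv1, CCND2 was read almost entirely in LNCaP95, and CDKN1B fell in LNCaP95 after both CPSF1 hairpins.

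The kinases, RB1 and E2F1 were likewise highest in 22Rv1 controls. CDK4 was at 261 ± 23.5 CPM in LNCaP, 212 ± 43.1 in LNCaP95 and 522 ± 48.5 in 22Rv1 (SD, n = 3), and 22Rv1 exceeded LNCaP by 0.90 ± 0.16 (adjusted p = 0.000181) and LNCaP95 by 1.44 ± 0.16 (9.7e-07) on the log2 scale. The smaller gap of CDK4 between LNCaP95 and LNCaP (-0.54 ± 0.16, adjusted p = 0.012) was lost without LNCaP95 CTRL sh replicate 1 (0.0546) or 2 (0.0666). CDK6 was at 2.98 ± 1.09, 1.61 ± 0.982 and 14.8 ± 4.90 CPM in the same order, RB1 at 6.65 ± 0.606, 9.04 ± 3.29 and 19.9 ± 5.74, and E2F1 at 16.2 ± 0.875, 13.1 ± 2.73 and 38.5 ± 11.7. For these 3 genes 22Rv1 was above both other lines (adjusted p at most 0.00166), and LNCaP and LNCaP95 did not differ at the threshold.

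CDKN1B had another order. Its controls were at 37.6 ± 6.10 CPM in LNCaP, 152 ± 13.4 in LNCaP95 and 100 ± 21.2 in 22Rv1 (SD, n = 3). LNCaP was lowest, below LNCaP95 by 1.77 ± 0.19 on the log2 scale (adjusted p = 1.32e-06) and below 22Rv1 by 1.33 ± 0.19 (2e-05). The gap between 22Rv1 and LNCaP95 was -0.44 ± 0.18 (adjusted p = 0.0453), and CDKN1B lost that call without any 1 of 6 control libraries (replicates 1 and 2 of LNCaP or LNCaP95, replicates 1 and 3 of 22Rv1; adjusted p from 0.0515 to 0.129) and with DESeq2 size factors (0.0501). MYC was at 256 ± 63.6, 383 ± 109 and 235 ± 95.6 CPM, groups that overlapped, and no pair of lines differed in MYC (adjusted p = 0.334, 0.538 and 0.0894). Of the 9 genes, 5 differed between LNCaP95 and LNCaP, 6 between 22Rv1 and LNCaP and 8 between 22Rv1 and LNCaP95, where 39.3%, 47.2% and 54.6% of all genes tested did. CCND2 and CDK6 were each under the 2 CPM filter in at least 1 line and were tested through the lines where they are higher. Counting only genes above 2 CPM in both lines compared, the differences were 4 of 7, 6 of 8 and 6 of 7.

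The effect of CPSF1 knockdown on mRNAs ending in the annotated 3′ UTR was examined next, with the 6 CPSF1 sh libraries of a line set against its 3 controls. In LNCaP95, CCND2, CCND3, CDK6, RB1 and E2F1 rose, CDKN1B fell, and CCND1, CDK4 and MYC were not called. These were 6 of 9 genes tested, where 30.5% of all genes tested were called, or 5 of 8 without CDK6, which passed the filter only through the knockdown libraries. In LNCaP 2 of 8 were called (CCND1 lower, CCND3 higher) against 18.3% of all genes, with 6 of the 8 at an unadjusted p under 0.05. In 22Rv1 edgeR called 0 of 8 against 1.47%, with 0 at an unadjusted p under 0.05 and 0 called by DESeq2. The median log2 change of the genes tested was 0.28, 0.72 and 0.07 in LNCaP, LNCaP95 and 22Rv1, beside 0.02, 0.01 and -0.01 over all genes, and was 0.46 in LNCaP95 without CDK6. All 6 knockdown libraries were above the 3 controls for 9.19%, 13.6% and 4.05% of all genes tested in LNCaP, LNCaP95 and 22Rv1, and below them for 10.8%, 14.2% and 4.34%, the background to each statement on overlap below.

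CDKN1B, the inhibitor of the group, was the largest fall in LNCaP95. It was at 151, 165 and 139 CPM in the controls, 74.9, 52.4 and 54.2 with CPSF1 sh1, and 31.3, 40.3 and 30.0 with CPSF1 sh2. The groups did not overlap, the CPSF1 sh2 libraries lay below those of CPSF1 sh1, and the log2 change was -1.68 ± 0.21 (SE, adjusted p = 1.28e-05). Each hairpin alone gave a fall, by 1.31 for CPSF1 sh1 and by 2.16 for CPSF1 sh2. In LNCaP, CDKN1B was at 39.4, 42.6 and 30.8 CPM in the controls and 14.9 to 34.3 after knockdown, groups that overlapped (-0.47 ± 0.20, adjusted p = 0.118). In 22Rv1, CDKN1B was at 77.7 to 120 and 79.8 to 126 CPM (0.06 ± 0.16, 0.913). The response differed between LNCaP95 and LNCaP by -1.20 ± 0.31 (adjusted p = 0.0118 for the interaction, 0.0533 without LNCaP CTRL sh replicate 3) and between 22Rv1 and LNCaP95 by 1.74 ± 0.30 (0.00021).

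CDK6, a partner of the D-type cyclins, was the largest rise. In LNCaP95 it was at 1.21, 2.73 and 0.894 CPM in the controls, 9.68, 10.9 and 6.45 with CPSF1 sh1, and 13.8, 12.9 and 7.67 with CPSF1 sh2, so that every knockdown library was above every control (2.64 ± 0.40, adjusted p = 9.12e-05). The control mean of 1.61 CPM was under the 2 CPM filter, so CDK6 was tested there only through its knockdown libraries. In LNCaP, CDK6 was at 3.01, 4.06 and 1.88 CPM in the controls and 4.23 to 7.20 after knockdown. These groups did not overlap either, but the change was not called (0.92 ± 0.35, adjusted p = 0.0711). In 22Rv1, CDK6 was at 10.3 to 20.0 and 13.0 to 20.1 CPM (0.19 ± 0.22, 0.765). The response in LNCaP95 exceeded that in LNCaP by 1.73 ± 0.49 (adjusted p = 0.0214) and that in 22Rv1 by 2.43, the interaction being -2.43 ± 0.43 for 22Rv1 against LNCaP95 (adjusted p = 0.000303). The difference between LNCaP95 and LNCaP in CDK6 was lost without LNCaP CTRL sh replicate 2 (adjusted p = 0.116), LNCaP95 CTRL sh replicate 1 (0.0745) or replicate 3 (0.0869).

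Among the cyclins, CCND3 was the one that rose in both LNCaP and LNCaP95. In LNCaP95 it was at 37.8, 34.4 and 44.5 CPM in the controls and 53.3, 67.4, 82.1, 96.5, 90.3 and 87.3 after knockdown, with no overlap (1.03 ± 0.18, adjusted p = 0.000364). In LNCaP, CCND3 was at 62.3, 43.2 and 57.4 CPM against 78.9, 70.6 and 91.4 with CPSF1 sh1 and 59.3, 83.8 and 76.8 with CPSF1 sh2, where 1 knockdown library lay within the control range (0.50 ± 0.16, adjusted p = 0.0361). That LNCaP call for CCND3 was lost without CTRL sh replicate 2 (0.36, adjusted p = 0.205) or 3 (0.0885), without CPSF1 sh1 replicate 1 (0.0615) or 3 (0.071), and with CPSF1 sh2 alone (0.43, adjusted p = 0.181). In 22Rv1 all 6 knockdown libraries, at 57.0 to 62.5 CPM, were above the controls at 49.4 to 51.1, but CCND3 was not called (0.24 ± 0.12, adjusted p = 0.387). CCND3 responded less in 22Rv1 than in LNCaP95 (-0.77 ± 0.22, adjusted p = 0.0216), a difference lost without LNCaP95 CTRL sh replicate 1 (0.0601) or 2 (0.0646).

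CCND1, the most studied of the D-type cyclins, was called lower in LNCaP and in neither other line. It was at 1879, 1377 and 1440 CPM in the controls, 996, 942 and 1172 with CPSF1 sh1, and 990, 1385 and 1194 with CPSF1 sh2, with 1 knockdown library inside the control range (-0.49 ± 0.14, adjusted p = 0.017). Without CTRL sh replicate 1, the highest library, the change of CCND1 was -0.34 (adjusted p = 0.169), and with CPSF1 sh2 alone it was -0.39 (0.142). In LNCaP95 the controls were at 803 to 948 CPM and the knockdown libraries at 768 to 1033 (-0.04 ± 0.13, adjusted p = 0.834). In 22Rv1, CCND1 was at 8083 to 11534 and 6470 to 10874 CPM (-0.21 ± 0.15, 0.604). The difference in response between lines was not called for CCND1 in any of the 3 pairs (adjusted p at least 0.182). CCND2 rose in LNCaP95 from 19.6, 22.1 and 18.1 CPM to 30.5, 35.3 and 25.1 under CPSF1 sh1 and 32.4, 35.3 and 38.6 under CPSF1 sh2 (0.72 ± 0.18, adjusted p = 0.00465), with no overlap. CPSF1 sh1 alone gave CCND2 a change of 0.62 that was not called (adjusted p = 0.0681).

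RB1 and E2F1 rose in LNCaP95. RB1 was at 7.89, 12.8 and 6.48 CPM in the controls, 28.2, 32.3 and 15.9 with CPSF1 sh1, and 13.0, 22.2 and 20.9 with CPSF1 sh2, with no overlap though the lowest knockdown library lay close to the highest control (1.30 ± 0.29, adjusted p = 0.00246). In LNCaP, RB1 was at 6.09 to 7.29 CPM in controls and 4.11 to 18.5 after knockdown (0.85 ± 0.36, 0.113), with 5 knockdown libraries above every control and 1 below. With CPSF1 sh1 alone RB1 was called higher in LNCaP (1.09, adjusted p = 0.0159), and with CPSF1 sh2 alone it was not called (0.53, 0.438). E2F1 was at 12.7, 15.9 and 10.5 CPM in LNCaP95 controls and 15.2, 24.9, 17.4, 33.9, 28.2 and 20.4 after knockdown, with 1 library in the control range (0.82 ± 0.25, adjusted p = 0.0187). The E2F1 call was lost without CTRL sh replicate 1 (adjusted p = 0.0701) or 3 (0.095) and with CPSF1 sh1 alone (0.56, adjusted p = 0.181). In LNCaP all 6 knockdown libraries of E2F1, at 19.1 to 25.7 CPM, were above the controls at 15.2 to 16.9, without a call (0.47 ± 0.18, adjusted p = 0.0744). In 22Rv1 the control and knockdown ranges overlapped for RB1, at 13.5 to 24.5 and 17.3 to 25.3 CPM (0.02 ± 0.20, adjusted p = 0.976), and for E2F1, at 28.4 to 51.4 and 40.5 to 45.4 CPM (0.20 ± 0.17, 0.654).

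MYC and CDK4 were not called in the 3′ UTR table of any line. MYC was at 198 to 324 CPM in LNCaP controls and 119 to 307 after knockdown (-0.30 ± 0.23, adjusted p = 0.384), 295 to 504 and 250 to 649 in LNCaP95 (0.07 ± 0.22, 0.838), and 128 to 313 and 135 to 339 in 22Rv1 (0.07 ± 0.29, 0.94). CDK4 was at 234 to 276 and 243 to 312 CPM in LNCaP (0.09 ± 0.12, adjusted p = 0.636), 176 to 260 and 195 to 270 in LNCaP95 (0.20 ± 0.14, 0.301) and 486 to 577 and 459 to 543 in 22Rv1 (-0.03 ± 0.11, 0.928). For both genes the control and knockdown ranges overlapped in every line.

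**Figure D2:**
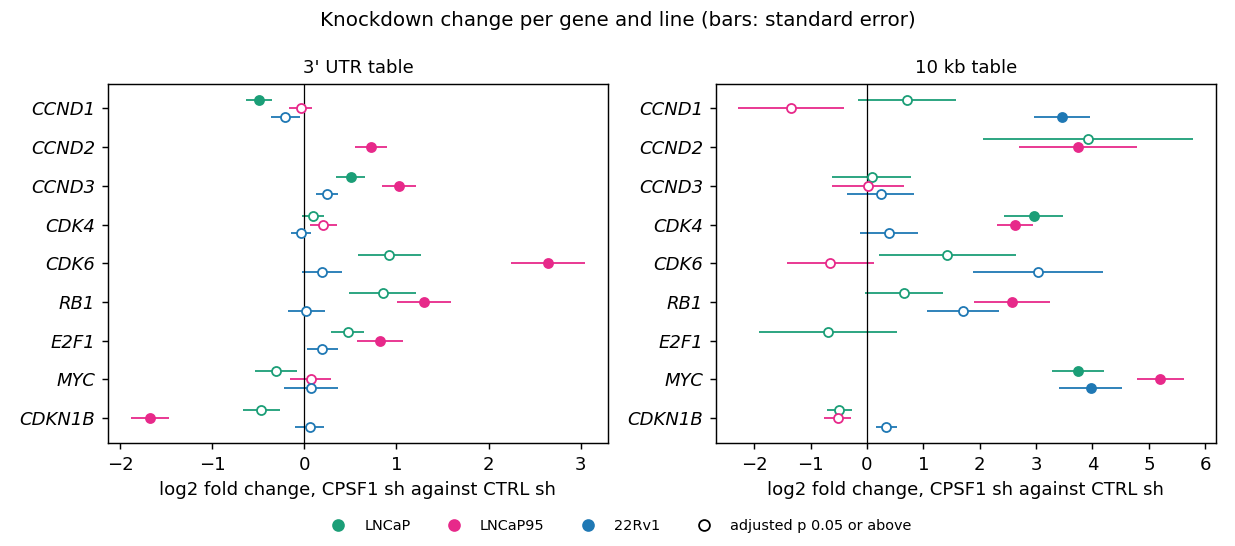
Fitted log2 change after CPSF1 knockdown (points, with SE bars) for each gene in the 3′ UTR and the 10 kb tables, by line, with filled points where adjusted p was under 0.05. The 3′ UTR change of MYC lies between -0.30 and 0.07, while its 10 kb change lies between 3.74 and 5.20.

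In the 10 kb downstream other genes of the axis were called. MYC rose there in all 3 lines, CDK4 in LNCaP and LNCaP95, CCND1 in 22Rv1, and CCND2 and RB1 in LNCaP95. This made 2 of 9 genes tested higher for LNCaP, 4 of 8 for LNCaP95 and 2 of 7 for 22Rv1, and none lower, where 14.7%, 27.7% and 9.99% of all genes tested were called in either direction and 9.52%, 17.6% and 7.26% were higher. Counting only genes above 2 CPM in both controls and knockdown, which leaves out CCND2 and CDK6 where they were tested through the knockdown libraries, the counts were 2 of 7, 3 of 7 and 2 of 6. The region took a mean of 4.88% of all reads in LNCaP controls and 6.28% after knockdown, 3.62% and 6.01% in LNCaP95, and 4.66% and 5.87% in 22Rv1. The fits were scaled within the 10 kb table, which takes out a rise shared by all genes. The median change over all genes was then 0.13, 0.22 and 0.19 in LNCaP, LNCaP95 and 22Rv1, and 0.62, 1.11 and 0.73 when scaled to the reads of all 4 tables.

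MYC had 2, 5 and 1 reads in its 10 kb region in LNCaP controls, 41, 47 and 36 with CPSF1 sh1, and 85, 18 and 66 with CPSF1 sh2. In LNCaP95 it had 1, 7 and 2 in controls, 259, 259 and 175 with CPSF1 sh1, and 177, 299 and 216 with CPSF1 sh2. In 22Rv1 it had 0, 3 and 1 in controls, 42, 22 and 29 with CPSF1 sh1, and 91, 69 and 96 with CPSF1 sh2. Every knockdown library exceeded every control in each line, whereas 10.1%, 17.3% and 11.2% of all genes tested had all 6 knockdown libraries above the 3 controls in LNCaP, LNCaP95 and 22Rv1. The log2 change of MYC was 3.74 ± 0.46 in LNCaP (SE, adjusted p = 1.28e-11), 5.20 ± 0.41 in LNCaP95 (3.16e-19) and 3.97 ± 0.56 in 22Rv1 (1.13e-08). Pooled over libraries within the 10 kb table's own scale, as are the pooled ratios further on, the ratio of knockdown to control was 13.7 (95% counting interval 6.84 to 31.9), 38.1 (20.7 to 79.7) and 16.7 (6.46 to 61.6). Such intervals cover counting error only, and reads without molecular identifiers need not be independent molecules. The size of the MYC response was not shown to differ between lines (adjusted p = 0.396 for LNCaP95 against LNCaP, 0.953 for 22Rv1 against LNCaP and 0.57 for 22Rv1 against LNCaP95).

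Seen as a share of the gene's own reads, the 10 kb region held 0.216% ± 0.111 of MYC reads in LNCaP controls (SD, n = 3), 3.85% ± 0.741 under CPSF1 sh1 and 7.05% ± 1.26 under CPSF1 sh2. In LNCaP95 the MYC share went from 0.171% ± 0.129 to 9.94% ± 1.57 and 15.4% ± 4.25, and in 22Rv1 from 0.12% ± 0.147 to 3.82% ± 2.02 and 4.31% ± 0.762. Most MYC mRNA was thus still read at the annotated end in every group. The 10 kb reads set against the 3′ UTR reads, tested as an interaction, rose for MYC by 4.10 ± 0.49 on the log2 scale in LNCaP (adjusted p = 7.21e-07), 5.23 ± 0.46 in LNCaP95 (4.26e-10) and 3.98 ± 0.59 in 22Rv1 (3.34e-05). The first AATAAA of the MYC region lies 900 bases past the extended 3′ UTR, and the tables give no position for the reads within the region.

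**Figure D3:**
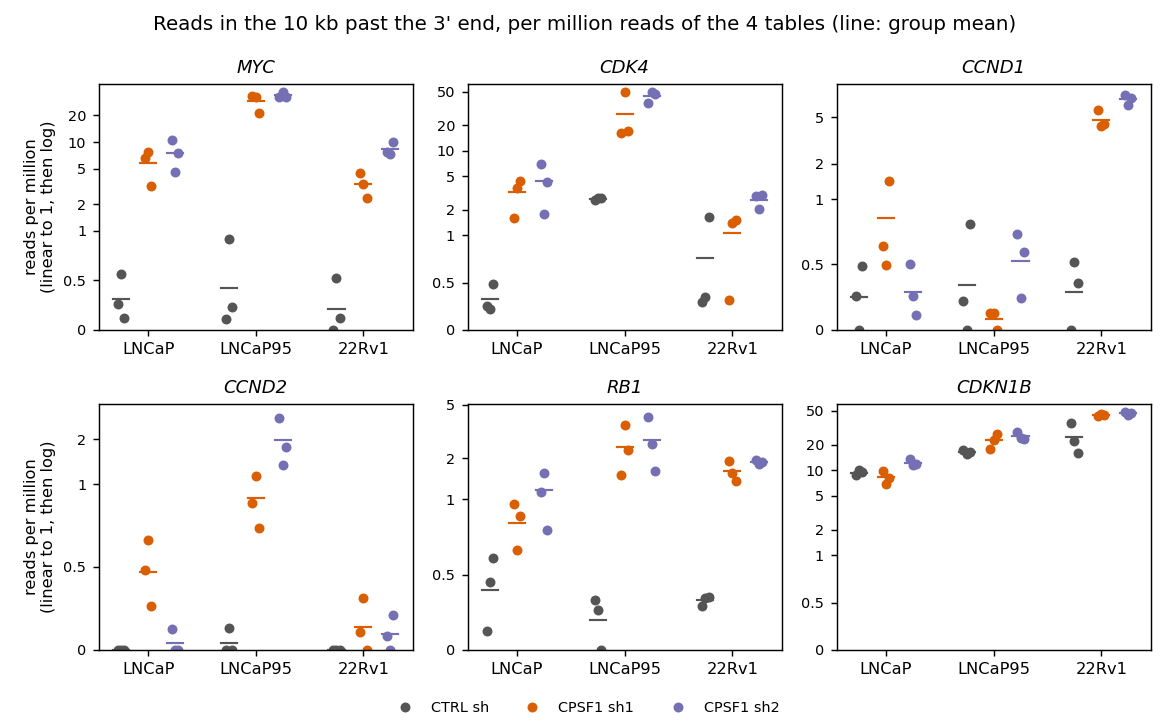
Reads in the 10 kb downstream, scaled to the reads of the 4 tables (RPM), for 6 of the genes, with a point for each library, short lines for group means, and axes linear to 1 and logarithmic above. MYC was above every control in all 6 knockdown libraries of each line, whereas CCND1 was so in 22Rv1.

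CDK4 rose downstream in LNCaP and LNCaP95. It had 2, 2 and 4 reads in LNCaP controls, 10, 22 and 50 with CPSF1 sh1, and 56, 7 and 37 with CPSF1 sh2 (2.96 ± 0.53, adjusted p = 3.34e-06). In LNCaP95 it had 24, 21 and 24 in controls, 128, 391 and 140 with CPSF1 sh1, and 198, 406 and 319 with CPSF1 sh2 (2.62 ± 0.32, adjusted p = 7.05e-11). Groups did not overlap in either line. In 22Rv1, CDK4 had 1, 2 and 14 reads in controls, 3, 9 and 19 with CPSF1 sh1, and 34, 19 and 29 with CPSF1 sh2, with overlap (0.39 ± 0.51, adjusted p = 0.721). The CDK4 share of its own reads rose in LNCaP95 from 2.34% ± 0.315 (SD, n = 3) to 16.4% ± 8.57 under CPSF1 sh1 and 23.6% ± 1.37 under CPSF1 sh2, and in LNCaP from 0.247% ± 0.131 to 1.97% ± 0.903 and 2.59% ± 1.17. The ratio to the 3′ UTR of CDK4 rose by 2.82 ± 0.56 in LNCaP (adjusted p = 0.000774) and 2.31 ± 0.36 in LNCaP95 (9.47e-06). The CDK4 response in 22Rv1 was lower than in LNCaP95 by 2.26, at -2.26 ± 0.63 (adjusted p = 0.0183), but without 22Rv1 CTRL sh replicate 3, the control with 14 reads, it was -0.72 (0.809). Part of AGAP2 lies in this CDK4 region on the same strand.

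CCND1 rose downstream in 22Rv1 alone among the calls. It had 0, 3 and 3 reads in 22Rv1 controls, 54, 27 and 54 with CPSF1 sh1, and 91, 60 and 70 with CPSF1 sh2, with no overlap (3.45 ± 0.49, adjusted p = 1.43e-08; pooled ratio 11.3, counting interval 5.16 to 31.1). Even so, the region held only 0.103% ± 0.0106 of CCND1 reads under CPSF1 sh1 and 0.186% ± 0.0172 under CPSF1 sh2 (SD, n = 3), against 0.00623% ± 0.00567 in controls. In LNCaP, CCND1 had 2, 0 and 4 reads in controls and 1 to 16 after knockdown (0.71 ± 0.87, adjusted p = 0.668). In LNCaP95, CCND1 had 2, 0 and 7 reads in controls and 0 to 4 after knockdown (-1.35 ± 0.93, 0.293). The response of CCND1 in 22Rv1 exceeded that in LNCaP95 by 4.81 ± 1.06 (adjusted p = 0.00165), and by 3.35 without LNCaP95 CTRL sh replicate 3, which held 7 of the 9 control reads (adjusted p = 0.3). Between 22Rv1 and LNCaP it was not called (2.73 ± 1.11, adjusted p = 0.28).

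The remaining genes gave few downstream reads apart from CDKN1B. CCND2 had 0, 1 and 0 reads in LNCaP95 controls, 7, 9 and 6 with CPSF1 sh1 and 15, 11 and 12 with CPSF1 sh2, with no overlap (adjusted p = 0.00354; pooled ratio 16.5, counting interval 2.85 to 663). CCND2 passed the filter there only through the knockdown libraries. With CPSF1 sh1 alone the call for CCND2 was lost (adjusted p = 0.0752). In LNCaP, CCND2 had 0 reads in the 3 controls and 11 in the 6 knockdown libraries, with 3, 4 and 3 under CPSF1 sh1 and 1, 0 and 0 under CPSF1 sh2. It passed the filter through the knockdown libraries and was not called (3.92 ± 1.86, adjusted p = 0.155). Against an assumed 3 control reads the ratio was 1.37, and the counting interval began at 0.936. In 22Rv1 CCND2 had 0 and 6 reads. In the 3′ UTR table CCND2 had 0 reads in the LNCaP knockdown libraries and 1 in those of 22Rv1. Part of TIGAR lies in this CCND2 region on the same strand, so the downstream reads need not be those of CCND2. RB1 rose in LNCaP95 from 3, 2 and 0 reads to 12, 28 and 19 under CPSF1 sh1 and 22, 21 and 11 under CPSF1 sh2 (2.58 ± 0.67, adjusted p = 0.00183). The 3′ UTR reads of RB1 rose there too, and its ratio of downstream to 3′ UTR reads was not called (1.35 ± 0.81, adjusted p = 0.214). In 22Rv1, RB1 had 1, 2 and 3 reads in controls and 10 to 23 after knockdown, and CDK6 had 0, 0 and 1 against 4 to 16. Neither RB1 (1.70 ± 0.64, adjusted p = 0.0706) nor CDK6 (3.03 ± 1.15, 0.0752; pooled ratio 8.99, counting interval 1.54 to 362) was called in 22Rv1, although their groups did not overlap. Scaled to the reads of all 4 tables, RB1 (2.25, adjusted p = 0.00511) and CDK6 (3.53, 0.0139) were called too, and the 22Rv1 count was 5 of 7 against 19.2% of all genes. That count includes CDK6, which passed the filter in 22Rv1 only through the knockdown libraries (mean 1.03 CPM in controls, 13.5 after knockdown). CCND3 had 2 to 18 reads in any library and was not called, and E2F1 had at most 7.

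CDKN1B differed from the others in that its 10 kb region was already well read in controls. It held 32.5% ± 3.17 of CDKN1B reads in LNCaP controls, 15.7% ± 2.23 in LNCaP95 and 31.6% ± 16.0 in 22Rv1 (SD, n = 3). In LNCaP95 the share rose to 39.8% ± 10.1 under CPSF1 sh1 and 55.7% ± 7.21 under CPSF1 sh2, all 6 libraries above the 3 controls. The raw read counts there were 157, 118 and 141 in controls and 142 to 219 after knockdown. On the table's own scale the CDKN1B controls were at 501 to 569 CPM and the knockdown libraries below them at 333 to 479, whereas relative to the reads of the 4 tables the controls were at 15.4 to 17.3 RPM and the knockdown libraries above them at 17.9 to 28.0. The CDKN1B ratio of downstream to 3′ UTR reads rose by 1.22 ± 0.32 in LNCaP95 (adjusted p = 0.0039), while it changed by -0.01 ± 0.40 in LNCaP (0.996) and 0.30 ± 0.29 in 22Rv1 (0.568). The 10 kb level itself was not called in any line within the table's own scale (-0.49, -0.52 and 0.34 on the log2 scale). With a single hairpin it was called lower under CPSF1 sh1 in LNCaP (-0.68, adjusted p = 0.037) and CPSF1 sh2 in LNCaP95 (-0.61, 0.0493). The other hairpin gave no call in LNCaP (-0.36, adjusted p = 0.407) or in LNCaP95 (-0.41, 0.376). Scaled to the reads of all 4 tables, CDKN1B changed by 0.03, 0.40 and 0.81, beside medians of 0.62, 1.11 and 0.73 over all genes. On that scale CDKN1B was called in 22Rv1 (adjusted p = 0.00101), where 19.2% of all genes were. Its sign in LNCaP and LNCaP95 thus depends on the scale. APOLD1 starts within this CDKN1B region on the same strand.

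**Figure D4:**
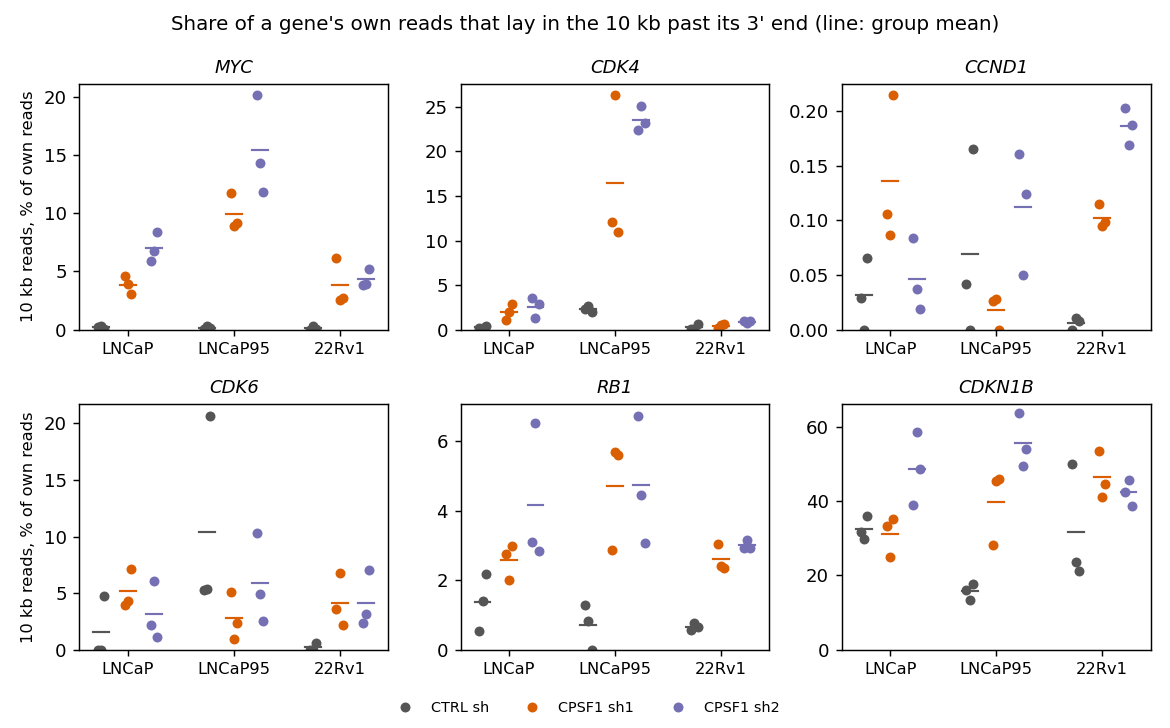
Share of each gene's own reads, in percent, that fell in the 10 kb downstream, for 6 of the genes, with a point for each library and short lines for group means, by line and hairpin. The MYC share stayed below 1% in every control and lay between 2.56% and 20.1% after knockdown, and the CDKN1B share in LNCaP95 rose from 13.3% to 17.7% in controls to 28.1% to 63.6%.

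With the 10 kb to 3′ UTR ratio, 2 of 8 genes tested were higher in LNCaP (CDK4, MYC; 10.3% of all genes called), 4 higher and 1 lower of 8 in LNCaP95 (CCND2, CDK4, MYC and CDKN1B higher, CDK6 lower; 28.0%), and 2 higher of 7 in 22Rv1 (CCND1, MYC; 7.45%). The LNCaP95 count includes CCND2 and CDK6, tested through the knockdown libraries in the 10 kb and the 3′ UTR table. The fall for CDK6 (-3.45 ± 0.90, adjusted p = 0.0042) went with its 3′ UTR rise and 2, 3 and 6 control reads downstream against 1 to 9, and was lost without CTRL sh replicate 3 (-2.64, adjusted p = 0.0762). The rise for CCND2 (3.24 ± 1.11, adjusted p = 0.0261), whose region overlaps TIGAR on the same strand, was lost without CTRL sh replicate 1 (0.103) or 3 (0.0926). For CCND1 in 22Rv1 the ratio rose by 3.66 ± 0.56 (adjusted p = 5.41e-05). The knockdown response in the 10 kb region was called different between lines for 0 of 8 genes in LNCaP95 against LNCaP (2.48% of all genes called; 1 of the 8 at an unadjusted p under 0.05 by edgeR), 0 of 8 in 22Rv1 against LNCaP (1.00%; 3) and 2 of 8 in 22Rv1 against LNCaP95 (CCND1, CDK4; 4.15%). In the 3′ UTR these counts were 2 of 9 (CDK6, CDKN1B; 9.58%), 0 of 9 by edgeR with 0 at an unadjusted p under 0.05 (5.11%) and 3 of 9 (CCND3, CDK6, CDKN1B; 10.7%). CCND2 is in all of these denominators, though it passed the 3′ UTR filter over the 27 libraries through LNCaP95. Its 3′ UTR had 1 control and 0 knockdown reads in LNCaP, and 0 and 1 in 22Rv1. Its 10 kb region had 0 control reads in both lines. Such counts are too few to compare its response between lines. CDK6 was under 2 CPM in the LNCaP95 controls (mean 1.61).

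Intronic reads, which mark ends inside introns or priming at internal A-rich stretches, changed in LNCaP95. There 5 of 8 genes tested were called, against 23.8% of all genes, with CDK6 (0.85 ± 0.27, adjusted p = 0.022), E2F1 (1.26 ± 0.42, 0.0292) and RB1 (0.82 ± 0.17, 0.000583) higher and CCND1 (-1.29 ± 0.36, 0.00963) and CDKN1B lower. Without CDKN1B, which passed the filter only through the controls, this was 4 of 7. CDKN1B had 65, 34 and 29 intronic reads in LNCaP95 controls, 3, 2 and 5 with CPSF1 sh1 and 0, 0 and 7 with CPSF1 sh2 (-3.70 ± 0.51, adjusted p = 3.07e-06), with no overlap. RB1 was read mostly in its introns, at 80.2% ± 4.64 of its reads in LNCaP95 controls (SD, n = 3), 66.4% ± 5.20 with CPSF1 sh1 and 74.9% ± 5.89 with CPSF1 sh2. In the ratio of intron to 3′ UTR reads, CCND1 (-1.24, adjusted p = 0.0204), CDK6 (-1.80, 0.0105) and CDKN1B (-2.01, 0.0114) were lower in LNCaP95, 3 of 8 against 14.1%, and all 3 calls were lost without CTRL sh replicate 1 (adjusted p = 0.129, 0.0529 and 0.0654). That count includes CDK6, tested through the knockdown libraries in the 3′ UTR table, and CDKN1B, tested through the controls in the intron table. In LNCaP 0 of 6 and in 22Rv1 0 of 7 were called in this ratio by edgeR, with 1 at an unadjusted p under 0.05 in each, against 3.69% and 0.422%. The intronic level calls were likewise lost without LNCaP95 CTRL sh replicate 1 for CCND1 (adjusted p = 0.105), CDK6 (0.0903) and E2F1 (0.165), for CDK6 also without CTRL sh replicate 3 (0.165), and for E2F1 also without CTRL sh replicate 2 (0.0737), CPSF1 sh1 replicate 3 (0.0533) or CPSF1 sh2 replicate 3 (0.0692). In LNCaP 0 of 6 genes and in 22Rv1 0 of 7 were called by edgeR, with 0 at an unadjusted p under 0.05 in both, against 14.3% and 4.37% of all genes.

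When the 4 tables were summed per gene, 7 of 9 genes were called in LNCaP95 against 34.3% of all genes. CCND2 (0.71), CCND3 (0.77), CDK4 (0.41), CDK6 (1.26), RB1 (0.91) and E2F1 (0.77) rose on the log2 scale and CDKN1B fell by 1.17 ± 0.14 (adjusted p = 4.31e-06). The CDK4 total (adjusted p = 0.0457) lost its call without CTRL sh replicate 1 (0.163) or 2 (0.199), CPSF1 sh1 replicate 2 (0.057), or CPSF1 sh2 replicate 2 (0.0878) or 3 (0.0858). In LNCaP 1 of 8 was called, CCND1 (-0.42 ± 0.11, adjusted p = 0.00851, against 27.5%), and was lost without CTRL sh replicate 1 (-0.32, 0.0736). In 22Rv1 edgeR called 0 of 8 against 7.57%, with 1 at an unadjusted p under 0.05. MYC totals were not called in any line (-0.15 ± 0.24, 0.15 ± 0.22 and -0.01 ± 0.31).

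Genes around the axis were read from 5 lists that hold none of the 9 genes, with names given for short counts after their values were seen. Of 18 further G1 cyclins, kinases and inhibitors, 4 were higher (CDKN1A, CCNE1, CCNE2, CDKN2B) and 1 lower (CDKN1C) in the 3′ UTR table of LNCaP, 5 higher (SKP2, CCNE1, CCNE2, CDC25A, CDKN2A) and 4 lower (CKS1B, CCNA2, FBXW7, CDKN1C) of 17 tested in LNCaP95, and 1 higher (CDKN1A) in 22Rv1. CDKN1A (p21), an inhibitor of the same kinases, rose by 2.00 in LNCaP (adjusted p = 1.57e-07) and 1.40 in 22Rv1 (0.000845), and changed by 0.39 in LNCaP95 (0.074). CDKN1C (p57) fell by 1.31 in LNCaP (0.00107) and by 1.82 in LNCaP95 (6.16e-06), and changed by -0.13 in 22Rv1 (0.805). Of the RB family and E2F-DP factors, 0 of 13 were higher and 1 lower (TFDP2) in LNCaP, 5 of 14 higher (E2F2, E2F3, TFDP1, RBL1, MYBL2) in LNCaP95, and 0 of 14 called in 22Rv1 by edgeR. The median change of this list was 0.21, 0.56 and 0.03 in the 3 lines.

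In the MYC-MAX network, MXD1 was higher and MXI1 lower of 10 tested in LNCaP, MAX higher and MXI1, MYCL and MNT lower in LNCaP95, and MXD4 higher in 22Rv1. MXI1, which competes with MYC for MAX, fell by 1.26 in LNCaP (adjusted p = 1.61e-06) and by 1.54 in LNCaP95 (9.05e-07), and changed by -0.50 in 22Rv1 (0.107). Among 19 E2F target genes 1 was higher (TYMS) and 1 lower (CDT1) in LNCaP, 8 were higher and 1 lower (CDK1) in LNCaP95, and 0 were called in 22Rv1, with medians of 0.14, 0.45 and -0.15. TYMS, the thymidylate synthase, rose by 0.40 in LNCaP (adjusted p = 0.0404) and 0.45 in LNCaP95 (0.035). Of 20 MYC target genes 5 were higher in LNCaP (SRM, NCL, RRP9, EIF4E, NOP16), 8 higher and 1 lower (GNL3) in LNCaP95, and 0 called in 22Rv1, with medians of 0.30, 0.39 and 0.01. SRM, the spermidine synthase, rose by 0.59 in both LNCaP (0.0183) and LNCaP95 (0.00428), and NCL, which encodes nucleolin, by 0.39 (0.0353) and 0.76 (0.000441). The percentages of all genes called that stand beside the first 3′ UTR counts above, 18.3%, 30.5% and 1.47%, apply to these lists too.

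In the 10 kb table the MYC target list had 10 higher and 1 lower (DDX18) of 18 in LNCaP, 11 higher of 18 in LNCaP95 and 3 higher of 18 (HSPD1, NCL, NOP16) in 22Rv1, beside 9.52%, 17.6% and 7.26% of all genes higher. Its median change was 1.63, 1.88 and 0.50. The E2F target list had 9 higher of 19 in LNCaP95 and 3 higher (TK1, TYMS, MCM4) in 22Rv1. The G1 list had 1 higher (CDC25A) and 2 lower (CDKN2D, CCNH) of 17 in LNCaP, 5 higher (AMBRA1, MNAT1, CDC25A, FBXW7, CCNE2) and 2 lower (CKS1B, CDK2) in LNCaP95, and 3 higher (CDC25A, FBXW7, CDKN1A) and 1 lower (CKS1B) in 22Rv1. The RB and E2F-DP list had 1 higher (E2F3) and 1 lower (TFDP1) of 13 in LNCaP, 4 higher (RBL2, MYBL2, TFDP2, E2F3) in LNCaP95 and 0 in 22Rv1. In the MYC-MAX network MLXIP was higher in LNCaP and in 22Rv1, and in LNCaP95 MXI1 was higher and MAX and MLX lower.

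As a description, the gene whose 3′ UTR level was most like each of the 9 was found by Pearson's r of log2 CPM over the 27 libraries, among genes with a mean above 10 CPM. The libraries share their lines and hairpins, so r mainly carries the differences between lines. It was KIF12 for CCND1 (r = 0.988), TENM1 for CCND2 (0.982), HSPH1 for CCND3 (0.868), SMARCC1 for CDK4 (0.973) and NEK11 for CDK6 (0.911). It was CHCHD3 for RB1 (0.894), FAM222A for E2F1 (0.933), SDE2 for MYC (0.871) and NDUFB5 for CDKN1B (0.944).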

How the data were processed

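PAC-seq was performed by the authors on total RNA of LNCaP, LNCaP95 and 22Rv1 cells with CTRL sh, CPSF1 sh1 or CPSF1 sh2 (3 libraries each, 27 in all, groups taken from the sample titles). The deposited values are unnormalized counts of reads, with 1 table for each of 4 kinds of region, which the authors made from reads freed of their poly(A) stretch (DPAC), mapped with HISAT2 2.1.0 to hg19 (GRCh37) and counted by the 3′-most base on the gene's strand with featureCounts (Subread 2.0.3). Ends primed at internal A-rich stretches may be among the intronic and downstream counts.

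The deposited counts were tested with edgeR 4.0.16 (R 4.3.3; TMM factors, quasi-likelihood F-test, Benjamini-Hochberg over all genes tested, threshold 0.05) after a filter on a mean above 2 CPM in the libraries compared. SE is the absolute log2 change divided by the square root of F. Each line set 3 control against 6 knockdown libraries, lines were compared over their controls, and responses by interaction. A member passing the filter through the group where it is high may owe that to the change, so untested members are given by reads. Alternatives were other size factors (DESeq2 1.42.0), other filters, the DESeq2 test, summed library sizes, a replicate block, each hairpin alone and each library left out. Intervals are exact at 95% for pooled counts. Fits were tested on simulated data. No 2 libraries of a group agreed within sampling noise. The 9 genes and the lists were chosen with earlier results of these data known. Named list genes are those with the highest and lowest mean change among genes called in at least 2 lines, beside genes named for short counts. Signals were read from the GRCh37 reference with Gencode. The 10 kb count of the E2F target list in LNCaP is not reported here.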

Additional observations from a re-analysis of the deposited data

Results flagged for a closer look

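The knockdown response differed between lines, by the test of the interaction, for 5 genes of the axis. In the 3′ UTR table the response in LNCaP95 against LNCaP was higher for CDK6 by 1.73 on the log2 scale and lower for CDKN1B (-1.20), where 9.58% of all genes were called. Each of these calls was lost in at least 1 run that left out a single control library. In LNCaP95 controls the 3′ UTR mean of CDK6 was 1.61 CPM, under 2 CPM. The response in 22Rv1 against LNCaP95 was lower for CCND3 (-0.77) and CDK6 (-2.43) and higher for CDKN1B (1.74), where 10.7% of all genes were called. The CCND3 call was likewise lost without a single control library, while those of CDK6 and CDKN1B were kept. In the 10 kb table the response in 22Rv1 against LNCaP95 was higher for CCND1 (4.81) and lower for CDK4 (-2.26), where 4.15% of all genes were called. Both lost their call without a single control library.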

How the results depend on the processing

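Over 70 called gene values, 1089 recomputed values gave 1024 with the call and direction kept, 65 with the call lost and 0 with the direction turned. Of 480 recomputed counts of called genes, 445 stayed within 1.5 times. Counts that moved, with the reported value first, were as follows. In LNCaP the 3′ UTR count of 2 was 4 with summed library sizes, 1 with the replicate block and 0 with CPSF1 sh2 alone. The intron count of 0 was 1 with no filter, the total count of 1 was 2 with DESeq2, and the intron ratio count of 0 was 1 with summed sizes. In LNCaP95 the intron count of 5 was 3 with summed sizes, 2 with CPSF1 sh1 alone and 3 with CPSF1 sh2 alone. With more than 2 CPM asked of every library, the LNCaP95 ratio counts of 5 (10 kb) and 3 (intron) were 3 and 1. In 22Rv1 the 10 kb count of 2 was 1 with that filter and 5 with summed sizes (19.2% of all genes then called), and the 10 kb ratio count of 2 was 0 and 4. The 5 include CDK6, tested there through the knockdown libraries. The 3′ UTR response count of 2 for LNCaP95 against LNCaP was 1 with summed sizes. Leaving out 1 library gave 1 to 3 for the 3′ UTR and 0 to 3 for the total in LNCaP, 2 to 5 for introns, 3 to 5 for the 10 kb ratio and 0 to 3 for the intron ratio in LNCaP95. It gave 1 to 3 for the 3′ UTR response in LNCaP95 against LNCaP, and for the 10 kb response 0 to 1 in 22Rv1 against LNCaP and 1 to 3 against LNCaP95. The cause of these moves was not tested. Replicate numbers did not pair the libraries (correlation of same-numbered libraries -0.26 to 0.39 in the 3′ UTR table). The block ended 1 of 70 calls, CCND3 in LNCaP (0.50, adjusted p = 0.0547). MYC kept its 10 kb call in every alternative run that tested it. In 22Rv1 it was not tested with more than 2 CPM asked of every library. Few downstream reads in controls limit the 10 kb folds, except those of CDKN1B and that of CDK4 in LNCaP95, with 69 control reads.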
